A study of Mus musculus with 2 samples.

Results

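The elastic fibre, fibulin and microfibril genes examined here were Eln, Fbn1, Mfap2, Mfap4, Mfap5, Efemp2, Fbln5, Efemp1, Fbln1 and Fbln2, 10 of 18931 genes that could be named from the structure of their transcripts. They were chosen by name, with their values in these libraries already known, so every difference between the libraries given for them is a description. RNA was sequenced from cultures of mesenchymal stem/progenitor cells, taken from bone marrow of CD-1 mice aged 3 months and kept in DMEM and fetal bovine serum. Such stromal cells can give rise to bone-forming cells and fat cells. The first library came from PPARg-deficient cells (genotype label PPAR KO) and the second from PPARg-floxed cells (genotype label PPAR-flox), in which loxP sites flank part of Pparg. The labels do not say how the gene was deleted, whether animals were pooled, or which sex was used. With 1 library per genotype no difference has a replicate check, no test was possible, and a difference between genotypes cannot be told apart from one between cultures.

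An elastic fibre has a core of cross-linked elastin, laid down on a scaffold of microfibrils. Fibrillins form the microfibrils, small microfibril-associated glycoproteins decorate them, and short fibulins bring tropoelastin and the lysyl oxidases that cross-link it to the scaffold. Long fibulins bind fibronectin, basement membranes and elastic tissue, and microfibrils also hold latent TGFb and BMP growth factors in the matrix. In bone marrow stroma such genes are part of the matrix made by fibroblast-like cells.

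Values are in FPKM, fragment counts divided by transcript length and sequencing depth, summed over the transcripts of a gene. FPKM is per length, so levels of different genes within a library can be set side by side. Fold changes are log2 of deficient over floxed after adding 1 FPKM to each, which understates changes of genes with low values. The median of 10650 kept loci, those that reached 1 FPKM in 1 library or both and 300 nt, was itself 0.86 higher on this scale in deficient cells (1.81-fold). Folds below are therefore relative to that median locus unless they are said to be as deposited, and a gene was called higher or lower by size alone, at 2-fold. Pparg was at 1.39 FPKM in deficient cells and 6.86 FPKM in floxed cells, and its relative log2 fold was -2.58 (-1.72 as deposited). The files do not separate a deleted part of Pparg from the rest. Read bases over transcripts summed to 1728 megabases in deficient cells and 1383 megabases in floxed cells. Of stromal markers 8 of 11 were kept, Pdgfrb, Ly6a and Vcam1 among them, while Eng was listed at 0 in deficient cells and at 0.03 FPKM in floxed cells. Thy1 was at 0.42 FPKM in deficient cells and listed at 0 in floxed cells. The leukocyte gene Ptprc and the endothelial gene Pecam1 were listed at 0 in both.

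Of the 10 genes, Efemp1, Mfap5, Fbln2, Fbln5 and Fbn1 were at least 2-fold higher in deficient cells, Mfap2 was lower, and Efemp2 lay within 2-fold. Fbln1, Mfap4 and Eln stayed under 1 FPKM in both libraries and were not compared. Of all kept loci, 10.3% were higher by that measure and 11.6% lower, and as deposited 42.0% were higher and 4.57% lower. The 5 higher genes and the lower one were on the same side of 2-fold as deposited. Of the 7 compared genes, 4 reached 1 FPKM in both libraries, whereas Efemp1 and Mfap5 passed the filter on their level in deficient cells alone and Mfap2 on its level in floxed cells alone. A gene that passes in that way had to differ in that direction as deposited, though it need not have reached 2-fold. The genes were also chosen with their values known, so these counts support nothing about the group. The median relative log2 fold of the 7 was 2.81, against 0 over all kept loci by construction. It supports nothing either, and without a filter on low values the median was 1.43.

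**Figure D1:**
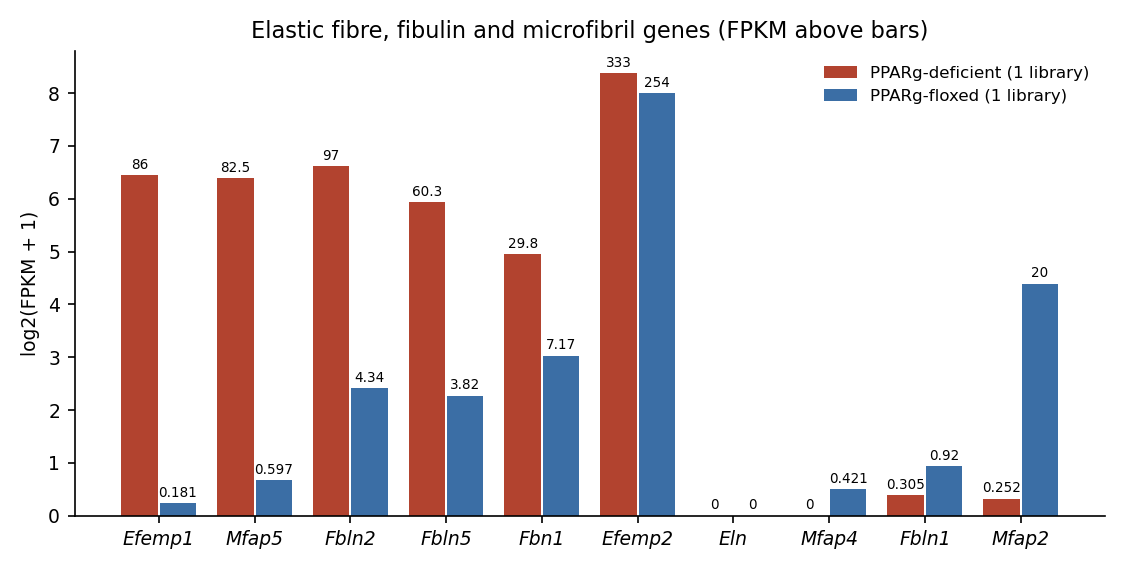
Bars give log2(FPKM + 1) of each gene in the PPARg-deficient library (left, red) and the PPARg-floxed library (right, blue), with the summed FPKM printed above, and genes run from the most raised to the most lowered as deposited. There is 1 library per genotype and no error bar: 5 genes were above their floxed level by more than Efemp2, whose bars stand at 333 FPKM in deficient and 254 FPKM in floxed cells, and Mfap2 stood at 0.252 FPKM in deficient and 19.96 FPKM in floxed cells.

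Elastin, the rubber-like core protein, is encoded by Eln (locus XLOC_017918, chromosome 5, 135178466 to 135223124 on the minus strand, mm9). Its single listed transcript has 37 exons and 3781 nt, and its value was listed at 0 in both libraries. Whether a listed 0 is a failed estimate or an absence of reads was not tested. In these files 18 kept loci were at 0 in floxed cells with 5 FPKM or more in deficient cells, and 15 were the reverse. No fold is given for Eln.

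Fibrillin-1, the main structural protein of adult microfibrils, is encoded by Fbn1 (XLOC_013445, chromosome 2, 125125904 to 125332174 on the minus strand). It was at 29.8 FPKM in deficient cells and 7.17 FPKM in floxed cells. The relative log2 fold was 1.06, just past the 2-fold line, and 1.91 as deposited. It fell short of that line at 0.90 with upper-quartile scaling, 0.90 with a pseudocount of 0.1 FPKM and 0.84 with a filter of 5 FPKM. Set against loci of like level it was also at 0.84. Most of the signal in both libraries was assigned to a transcript of the 21 exons at the 3′ end, which held 82.0% of Fbn1 FPKM in deficient cells and 71.8% in floxed cells. The transcript with all 66 exons was at 1.02 FPKM in deficient cells (deposited bounds 0.741 to 1.30) and 0.529 FPKM in floxed cells (0.326 to 0.733). These bounds, given by the authors' files for a transcript within 1 library, did not overlap, but they hold no variation between cultures. They are as deposited, without the 1.81-fold shift of the median locus taken off. They therefore do not show the 66-exon form to be higher relative to that locus. It was the only Fbn1 form to match a GENCODE M21 transcript over its whole chain, so the call rests mostly on a form without such a match.

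Of the microfibril-associated genes, Mfap5 and Mfap2, which encode a pair of related small glycoproteins that bind fibrillin, lay on opposite sides. Mfap5 (XLOC_018653, chromosome 6, 122463489 to 122479305 on the plus strand) was at 82.5 FPKM in deficient cells and 0.597 FPKM in floxed cells, a relative log2 fold of 4.85. Read bases over its transcripts came to 168 kb in deficient cells and 1.27 kb in floxed cells, so the floxed level rests on few reads. Mfap2 (XLOC_015747, chromosome 4, 140566339 to 140571899 on the plus strand) was at 0.252 FPKM in deficient cells and 19.96 FPKM in floxed cells, a relative log2 fold of -4.92. Here the thin side was the deficient one, with 0.248 kb of read bases against 28.9 kb in floxed cells. In deficient cells Mfap5 was the more abundant of the pair, and in floxed cells Mfap2 was. Mfap4 (XLOC_002950, chromosome 11, 61298946 to 61302206 on the plus strand), whose fibrinogen-like product binds elastic fibres, was listed at 0 in deficient cells and at 0.421 FPKM (bounds 0.0445 to 0.798) in floxed cells.

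Both Mfap2 transcripts, which differ in their first exon, were low in deficient cells. The one that starts at 140566339 was at 0.251 FPKM in deficient cells (0 to 0.607) and 11.2 FPKM in floxed cells (8.28 to 14.1). The one that starts at 140566552 was near 0 in deficient cells (upper bound 0.244) and at 8.79 FPKM in floxed cells (6.17 to 11.4). These transcripts share all exons but the first, and Mfap2 summed to 0.252 FPKM in deficient cells. Both transcripts therefore had to be low there, and they are not separate observations of the start regions. Their promoters, 250 bases before to 50 after the start (RefSeq, GRCm38.p6), are shown because they belong to the only member called lower. Capitals mark matches on either strand to GGGCGG (the GC box bound by Sp1), to AGGTCA (the half-site bound by many nuclear receptors, PPARg and RXR among them) and to TGANTCA (the AP-1 site).
Mfap2 first start, chr4:141010174-141010473, plus strand: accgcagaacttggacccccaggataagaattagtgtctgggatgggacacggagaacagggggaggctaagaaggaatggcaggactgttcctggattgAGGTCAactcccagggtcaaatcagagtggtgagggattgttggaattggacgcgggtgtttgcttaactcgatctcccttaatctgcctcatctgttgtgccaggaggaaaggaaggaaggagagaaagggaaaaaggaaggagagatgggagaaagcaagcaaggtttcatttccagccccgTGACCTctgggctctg
Mfap2 second start, chr4:141010431-141010730, plus strand: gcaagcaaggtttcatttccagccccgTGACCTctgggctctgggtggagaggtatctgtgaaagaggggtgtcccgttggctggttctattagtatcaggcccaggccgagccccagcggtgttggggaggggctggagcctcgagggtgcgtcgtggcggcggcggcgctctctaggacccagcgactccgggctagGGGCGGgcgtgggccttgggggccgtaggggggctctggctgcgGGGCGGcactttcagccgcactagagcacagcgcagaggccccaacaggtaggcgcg
The first window holds 2 half-sites and no GC box and the second 1 half-site and 2 GC boxes. The windows share their bases from 141010431 to 141010473, and the half-site there, on the minus strand, is counted in both. From the RefSeq start the first exon is 59 nt long for the first window, the length it has in the deposited files, and 41 nt for the second, where the files have 85 nt.

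Mfap5 had 2 transcripts of 10 exons, and both were higher in deficient cells with bounds that did not overlap. The first was at 63.6 FPKM in deficient cells (58.4 to 68.7) and 0.292 FPKM in floxed cells (0 to 0.701). The second, which starts 5′ of it, was at 18.9 FPKM in deficient cells (15.9 to 21.9) and 0.305 FPKM in floxed cells (0 to 0.663). They also differ at the end of exon 8, at 122475969 to 122476056 (mm9), which is 88 nt in the first transcript and 53 nt in the second. The exon is printed from GENCODE M21 (GRCm38, chr6:122525951-122526038, plus strand) because the choice of its end separates the major from the minor form, and capitals mark the 35 nt that only the major form keeps.
Mfap5 exon 8: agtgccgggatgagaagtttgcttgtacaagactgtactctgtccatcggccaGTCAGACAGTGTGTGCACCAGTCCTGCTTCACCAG
The extra stretch begins with GT, the letters of a splice donor, and 35 is not a multiple of 3, so dropping it shifts the reading frame. The minor form, which drops it, matched no GENCODE M21 transcript over its whole chain. The form with the longer exon held 77.0% of Mfap5 FPKM in deficient cells. In floxed cells it held 49.0%, but there both forms had bounds that reached 0. The 2 forms share all exons but the first and exon 8, and Mfap5 summed to 0.597 FPKM in floxed cells. Both therefore had to be low there, and they are not separate observations.

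**Figure D2:**
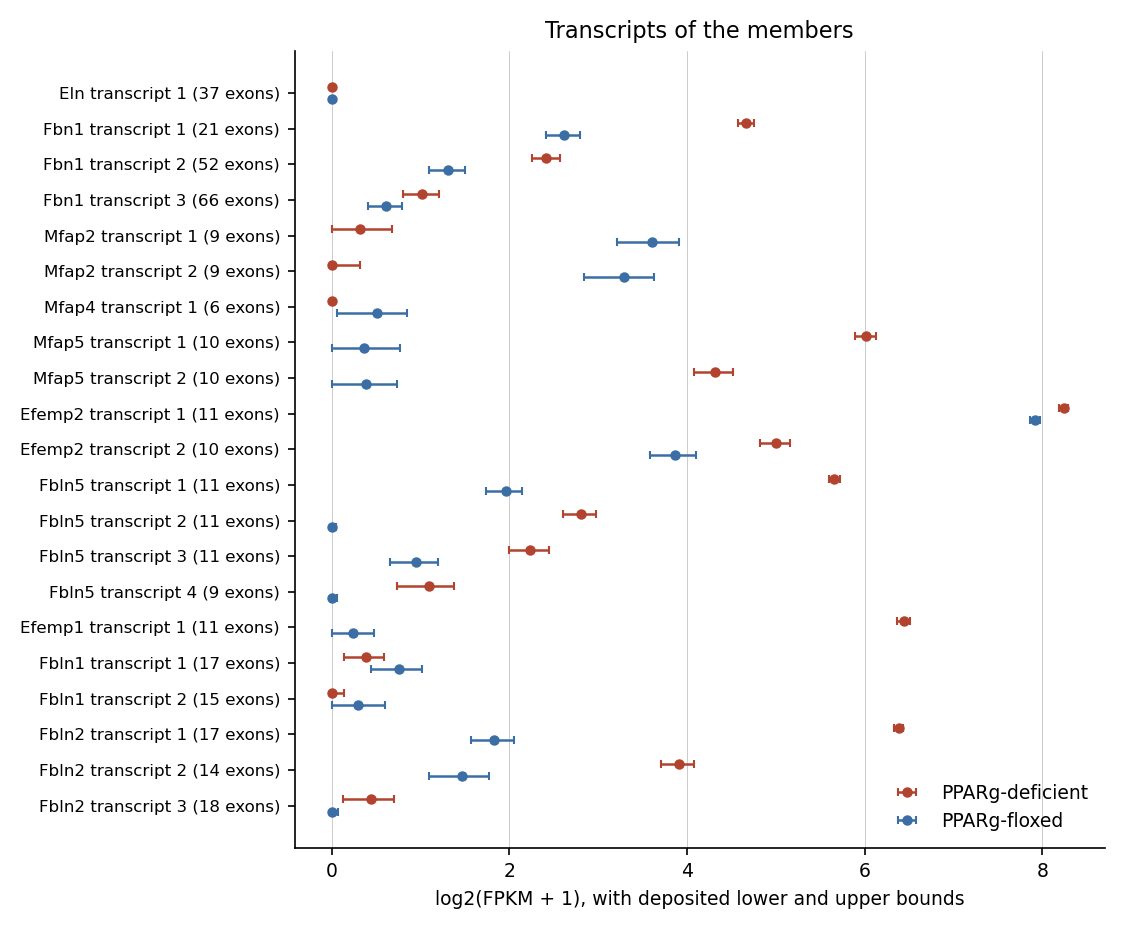
Each row is 1 transcript, with points at log2(FPKM + 1) in the PPARg-deficient (red, upper) and PPARg-floxed (blue, lower) library and bars from the deposited lower to upper bound. Values and bounds are as deposited. Of 21 transcripts, 15 were higher in deficient cells with bounds apart, and 3 had bounds that met (Eln and both of Fbln1). Lower with bounds apart were 3: both of Mfap2 and that of Mfap4, which was listed at 0 in deficient cells. The median locus was itself 1.81-fold higher in deficient cells as deposited. No share over all transcripts was taken, so these counts support nothing about the group.

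The short fibulins are secreted proteins built of calcium-binding EGF-like repeats. Efemp2 encodes fibulin-4, which binds lysyl oxidase and is needed for elastic fibres to form. It lies on chromosome 19 from 5474690 to 5481854 on the plus strand (XLOC_010947). Efemp2 was the most abundant of the 10 genes in both libraries, at 333 FPKM in deficient cells and 254 FPKM in floxed cells. Its relative log2 fold was -0.47 and its fold as deposited 0.39, so the sign turned with the scaling while the size stayed within 2-fold. Relative to loci of like level it was at -0.21. The 11-exon transcript held 90.7% of Efemp2 FPKM in deficient cells and 94.7% in floxed cells. The 10-exon transcript, whose first exon of 444 nt runs through the first intron of the other, was at 31.1 FPKM in deficient cells (27.3 to 34.9) and 13.6 FPKM in floxed cells (10.98 to 16.2).

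Fbln5 encodes fibulin-5, which binds tropoelastin and integrins, and lies on chromosome 12 from 102984775 to 103057279 on the minus strand (XLOC_005253). It was at 60.3 FPKM in deficient cells and 3.82 FPKM in floxed cells, a relative log2 fold of 2.81. The main transcript, of 11 exons and 5829 nt, was at 49.5 FPKM in deficient cells (47.3 to 51.6) and 2.89 FPKM in floxed cells (2.35 to 3.44). The transcript from a start further 3′, at 103056633, was at 3.71 FPKM in deficient cells (2.98 to 4.44) and 0.929 FPKM in floxed cells (0.572 to 1.29), and its share of the gene was 6.15% in deficient cells and 24.3% in floxed cells. A transcript with a slightly longer first exon and a 49 nt in place of a 52 nt exon was at 5.99 FPKM in deficient cells (5.09 to 6.90) and near 0 in floxed cells (upper bound 0.0392). That form matched no GENCODE M21 transcript over its whole chain. An unnamed 3-exon locus on the opposite strand, at 102988021 to 103050387, had 1130 of its 1134 bases inside Fbln5 exons. It was at 85.5 FPKM in deficient cells (78.1 to 92.9) and 9.40 FPKM in floxed cells (6.99 to 11.8). The handling of strand is not given in the sources used here, so reads of Fbln5 and of this locus may not have been told apart.

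Efemp1 encodes fibulin-3, a short fibulin of basement membranes and loose connective tissue, and lies on chromosome 11 from 28753205 to 28826743 on the plus strand (XLOC_002760). It was at 86.0 FPKM in deficient cells (81.5 to 90.5) and 0.181 FPKM in floxed cells (0 to 0.389), both on its single transcript of 11 exons and 2036 nt. The relative log2 fold of 5.35 was the largest of the 10 genes. Read bases over the gene came to 286 kb in deficient cells and 0.444 kb in floxed cells, which is under the length of the transcript, so the ratio of the levels is poorly fixed by the floxed side. With a pseudocount of 0.1 FPKM the relative log2 fold was 7.12 and with 5 FPKM it was 3.70. Promoters of Efemp1 and of the main start of Fbln5 are shown as those of the short fibulins that were higher, with capitals as above.
Efemp1, chr11:28852955-28853254, plus strand: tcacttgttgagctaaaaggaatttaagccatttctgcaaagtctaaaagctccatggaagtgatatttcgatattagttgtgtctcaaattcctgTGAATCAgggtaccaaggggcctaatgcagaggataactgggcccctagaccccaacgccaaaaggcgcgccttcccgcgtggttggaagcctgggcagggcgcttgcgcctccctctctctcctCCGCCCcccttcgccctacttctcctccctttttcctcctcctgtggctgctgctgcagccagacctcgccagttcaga
Fbln5 main start, chr12:101819070-101819369, minus strand: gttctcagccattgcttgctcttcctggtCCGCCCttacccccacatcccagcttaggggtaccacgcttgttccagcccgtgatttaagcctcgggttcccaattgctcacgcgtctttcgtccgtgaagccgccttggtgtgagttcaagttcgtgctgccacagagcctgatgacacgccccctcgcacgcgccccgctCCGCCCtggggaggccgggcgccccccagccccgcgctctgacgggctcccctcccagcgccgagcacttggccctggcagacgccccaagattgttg
The Efemp1 window holds 1 GC box and 1 AP-1 match and the Fbln5 window 2 GC boxes. Neither holds an AGGTCA half-site. From the RefSeq start the first exon of Efemp1 is 120 nt long, as in the deposited files, and that of Fbln5 is 386 nt against 322 nt in the files.

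Of the long fibulins, Fbln2 was higher and Fbln1 was near the floor. Fbln2, which encodes fibulin-2, a binding partner of fibronectin, fibrillin and laminins, lies on chromosome 6 from 91162758 to 91222534 on the plus strand (XLOC_018550). It was at 97.0 FPKM in deficient cells and 4.34 FPKM in floxed cells, a relative log2 fold of 3.34. Fbln1, which encodes fibulin-1, lies on chromosome 15 from 85036438 to 85116724 on the plus strand (XLOC_007571). It was at 0.305 FPKM in deficient cells and 0.920 FPKM in floxed cells, under the filter in both. Its 17-exon transcript had bounds of 0.102 to 0.508 FPKM in deficient cells and 0.356 to 1.03 FPKM in floxed cells, which overlap.

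The 17-exon transcript of Fbln2 carried most of the difference, at 82.6 FPKM in deficient cells (79.5 to 85.7) and 2.56 FPKM in floxed cells (1.97 to 3.15). It lacks an exon of 141 nt, at 91209624 to 91209764 (mm9), that the 18-exon transcript and a 14-exon transcript contain. The 18-exon transcript was at 0.364 FPKM in deficient cells (0.0947 to 0.633) and near 0 in floxed cells (upper bound 0.0517). The 14-exon transcript was at 14.0 FPKM in deficient cells (12.1 to 15.9) and 1.77 FPKM in floxed cells (1.14 to 2.41). Transcripts with the exon together held 14.8% of Fbln2 FPKM in deficient cells and 40.9% in floxed cells. Nearly all of that came from the 14-exon form, which matched no GENCODE M21 transcript over its whole chain. Exon 9, from GENCODE M21 (GRCm38, chr6:91259630-91259770, plus strand), and the promoter are shown because they belong to the most abundant gene among the 5 that were higher.
Fbln2 exon 9: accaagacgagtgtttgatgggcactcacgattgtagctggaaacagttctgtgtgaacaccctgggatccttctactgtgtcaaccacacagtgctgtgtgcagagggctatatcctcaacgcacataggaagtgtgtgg
Fbln2 promoter, chr6:91212514-91212813, plus strand: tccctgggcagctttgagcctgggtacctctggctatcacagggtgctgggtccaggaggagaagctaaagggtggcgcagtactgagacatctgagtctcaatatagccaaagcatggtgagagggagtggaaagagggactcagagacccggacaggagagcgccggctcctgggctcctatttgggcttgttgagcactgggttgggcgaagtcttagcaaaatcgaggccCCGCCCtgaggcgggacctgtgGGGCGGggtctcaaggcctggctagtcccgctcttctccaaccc
The exon is coding, and its length is a multiple of 3, so its loss keeps the reading frame. The promoter holds 2 GC boxes, 1 on each strand and on either side of the start, and no half-site. From the RefSeq start the first exon of Fbln2 is 137 nt long, as in the deposited files.

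Among all 12 RefSeq windows of the 7 members that have one (Fbn1, Mfap2, Fbln2, Efemp1, Fbln5, Fbln1 and Efemp2), 9 held GGGCGG on either strand, and each of the 7 members had such a window. Of 32851 mouse promoter windows of the same 300 bases, 35.7% held it. That share is per window and cannot be set beside the count by member, since a member with several windows has more chances to match. AGGTCA was in 4 of the 12 windows, against 16.3% of all windows: both of Mfap2, 1 of Efemp2 and the 3′ start of Fbln5. A direct repeat of AGGTCA with 1 base between, which contains AGGTCA itself, was in 0 of the 12 windows and in 0.0396% of all windows. TATAAA was in 0 of 12, against 13.6% of all windows. TGANTCA was in 1, against 7.81%, CCAAT in 2, against 37.4%, and CAGACA, a SMAD-binding sequence, in 4, against 21%. Windows of 1 gene can overlap, so they are not independent, and a match is only a run of letters.

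Summed over the 10 genes, FPKM was 689 in deficient cells and 292 in floxed cells. Efemp2 made up 48.3% of the sum in deficient cells and 87.2% in floxed cells. Without Efemp2, the only compared gene within 2-fold, the sums were 356 FPKM in deficient cells and 37.4 FPKM in floxed cells. These sums are as deposited, with the 1.81-fold shift of the median locus left in. The genes were chosen with their values known, so the sums support nothing about the group. In deficient cells the order after Efemp2 was Fbln2, Efemp1, Mfap5, Fbln5 and Fbn1. There the Mfap5 level of 82.5 FPKM lay within the bounds of Efemp1, so these neighbours did not differ beyond that error. In floxed cells the order after Efemp2 was Mfap2, Fbn1, Fbln2 and Fbln5, with the others under 1 FPKM, and the main transcripts of Fbln2 and Fbln5 had bounds that overlapped there. Reads of Fbln5 and of the opposite-strand locus inside its exons may not have been told apart, so the place of Fbln5 is uncertain.

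**Figure D3:**
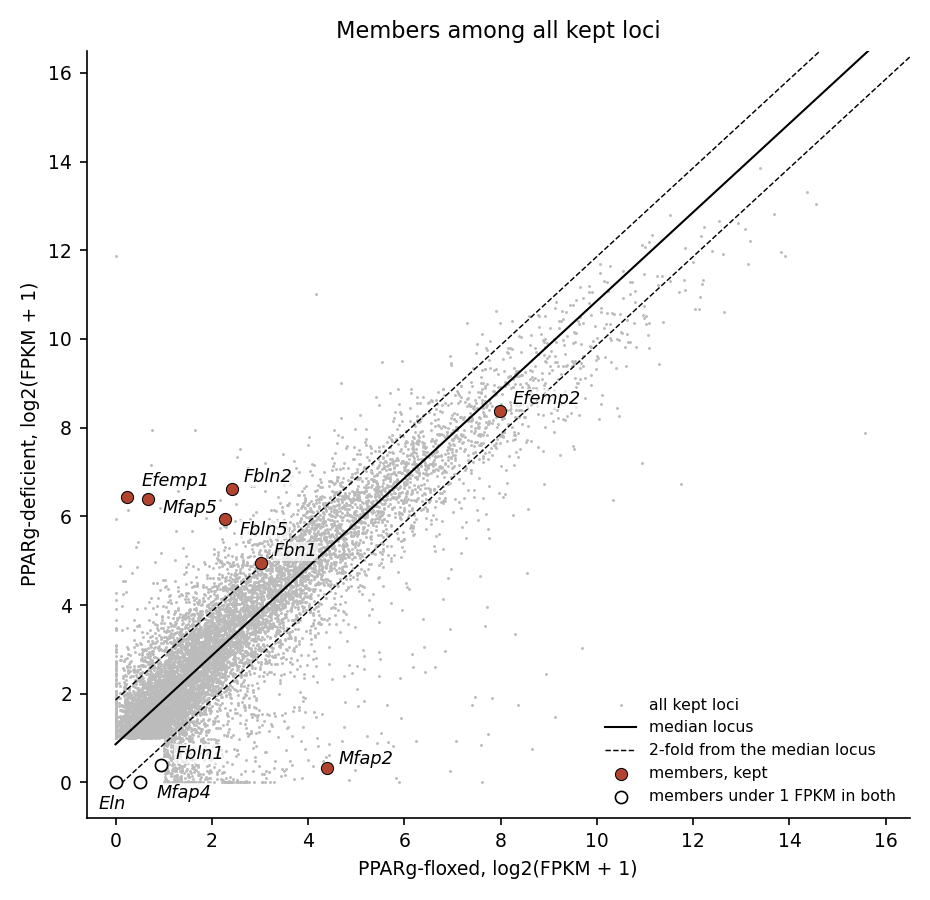
Each grey point is 1 of 10650 kept loci at its log2(FPKM + 1) in the PPARg-deficient (y axis) and PPARg-floxed (x axis) library, with members in red (kept) or white (under 1 FPKM in both). The solid line is the median locus, 0.86 above equality, and dashed lines are 2-fold from it: Fbn1 sits just above the upper dashed line, Efemp2 between the lines and Mfap2 far below them.

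Other genes of elastic fibre assembly and turnover were described from 9 lists of 83 entries, of which 81 could be named and 47 were kept. Of the 47, 4 were at least 2-fold higher (8.51%), 11 were lower (23.4%) and 32 lay within 2-fold of the median locus, and as deposited 15 were higher and 6 lower. The calls of Ltbp1, Sdc4, Serpine2, Tgfb2 and Loxl2 given below rest on the scaling, since as deposited these 5 lay within 2-fold. Equally, 11 genes within 2-fold of the median locus were past 2-fold higher as deposited, among them Fkbp10 (1.85), Timp3 (1.76), Ctsk (1.74), Itgb5 (1.63), Itga5 (1.47), Vcan (1.08) and Cst3 (1.03). The shares over all kept loci were 10.3% higher and 11.6% lower, as above. Of the called genes, Ltbp2 passed the filter on its level in deficient cells alone, and Loxl2, Dcn, Fmod and Lum on their level in floxed cells alone. The most and least raised genes of these lists lay inside the span from Efemp1 to Mfap2. That contrast supports nothing, since the genes that set the span were chosen with their values known. Efemp1 also passed the filter on its level in deficient cells alone, and Mfap2 on its level in floxed cells alone.

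Among 10 kept partners of microfibrils and latent TGFb binding proteins, Ltbp2 was higher and Ltbp1 lower. Ltbp2, whose product binds fibrillin-1 and fibulin-5, was at 7.81 FPKM in deficient cells and 0.419 FPKM in floxed cells (relative log2 fold 1.77). Ltbp1, which tethers latent TGFb to microfibrils, was at 29.2 FPKM in deficient cells and 38.5 FPKM in floxed cells (-1.25). Adamtsl5 was at 6.91 and 6.08 FPKM in deficient and floxed cells (-0.70), and Mfap3 at 11.4 and 8.16 FPKM in deficient and floxed cells (-0.42). The fibrillin gene Fbn2 was listed at 0 in deficient cells and at 0.13 FPKM in floxed cells. Of other fibulins only Fbln7 was kept, at 2.14 FPKM in deficient cells and listed at 0 in floxed cells.

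Of 5 lysyl oxidase genes, whose products cross-link elastin and collagen, 2 were higher and 1 lower. Lox was at 128 FPKM in deficient cells and 31.3 FPKM in floxed cells (1.14), and Loxl3 at 28.3 FPKM in deficient cells and 4.37 FPKM in floxed cells (1.59). Loxl2, named after its values were seen, was at 0.98 FPKM in deficient cells and 1.19 FPKM in floxed cells (-1.004), a difference that was within 2-fold as deposited.

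Of the 5 genes of the elastin receptor complex and of rotamases that fold matrix proteins, 1 was lower. That was Ctsa, which encodes the protective protein/cathepsin A of the complex, at 290 FPKM in deficient cells and 1056 FPKM in floxed cells (-2.72). Glb1, the beta-galactosidase gene whose splice variant is the elastin-binding protein, was at 29.4 FPKM in deficient cells and 28.6 FPKM in floxed cells (-0.82). Fkbp10 was at 6.90 FPKM in deficient cells and 1.197 FPKM in floxed cells (0.99), and Fkbp9 at 24.2 and 13.5 FPKM in deficient and floxed cells (-0.06).

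Of 5 kept cell surface receptor genes, the syndecan gene Sdc4 was lower, at 71.0 FPKM in deficient cells and 88.1 FPKM in floxed cells (-1.17), and the integrin genes lay within 2-fold of the median locus. Itgb5 was at 7.44 FPKM in deficient cells and 1.74 FPKM in floxed cells (0.77). Itga5 was at 7.77 FPKM in deficient cells and 2.18 FPKM in floxed cells (0.61), and Itgb1 at 34.7 and 28.2 FPKM in deficient and floxed cells (-0.57). Of 5 kept proteases that can cut elastin or microfibrils, Mmp2 and Ctsb were lower. Mmp2, the gelatinase A gene, was at 1.85 FPKM in deficient cells and 9.97 FPKM in floxed cells (-2.80). Ctsb, a lysosomal cathepsin gene, was at 425 FPKM in deficient cells and 1099 FPKM in floxed cells (-2.23). Ctsk was at 150 FPKM in deficient cells and 44.0 FPKM in floxed cells (0.88), and Ctsl at 476 and 423 FPKM in deficient and floxed cells (-0.69). The elastase genes Mmp12, Mmp9 and Elane were listed at 0 in both libraries.

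Of 5 kept protease inhibitor genes, Serpine2, which encodes a serine protease inhibitor, was lower, at 20.5 FPKM in deficient cells and 23.5 FPKM in floxed cells (-1.05). Timp3, an inhibitor of metalloproteinases that binds matrix, was at 737 FPKM in deficient cells and 217 FPKM in floxed cells (0.90), and Timp1 at 510 and 366 FPKM in deficient and floxed cells (-0.38). Cst3, the gene of the cathepsin inhibitor cystatin C, was at 349 FPKM in deficient cells and 170.4 FPKM in floxed cells (0.17). Of 4 kept growth factor genes, Bmp4 was higher, at 46.9 FPKM in deficient cells and 9.32 FPKM in floxed cells (1.36), and Tgfb2 lower, at 6.63 FPKM in deficient cells and 8.08 FPKM in floxed cells (-1.11). Tgfb3 was at 48.3 FPKM in deficient cells and 24.0 FPKM in floxed cells (0.12), and Inhba, an activin subunit gene, at 47.4 and 25.8 FPKM in deficient and floxed cells (-0.01).

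Of 7 kept genes of proteoglycans and fibronectin, 0 were higher and 3 were lower. All 3 passed the filter on their level in floxed cells alone. They therefore had to be lower, though not by 2-fold, and their count supports nothing. The 3, named after their values were seen, encode small leucine-rich proteoglycans: Dcn was at 0.07 FPKM in deficient cells and 2.82 FPKM in floxed cells (-2.70), Fmod at 0.64 and 3.90 FPKM in deficient and floxed cells (-2.43), and Lum was listed at 0 in deficient cells and at 4.13 FPKM in floxed cells. Bgn, another of that family, was at 2180 FPKM in deficient cells and 1763 FPKM in floxed cells (-0.55). Fn1, which encodes the fibronectin on which microfibrils assemble, was at 153 FPKM in deficient cells and 160 FPKM in floxed cells (-0.93), and Vcan at 7.69 FPKM in deficient cells and 3.10 FPKM in floxed cells (0.23). Mfge8, whose product binds integrins, was at 130 FPKM in deficient cells and 112 FPKM in floxed cells (-0.64).

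**Figure D4:**
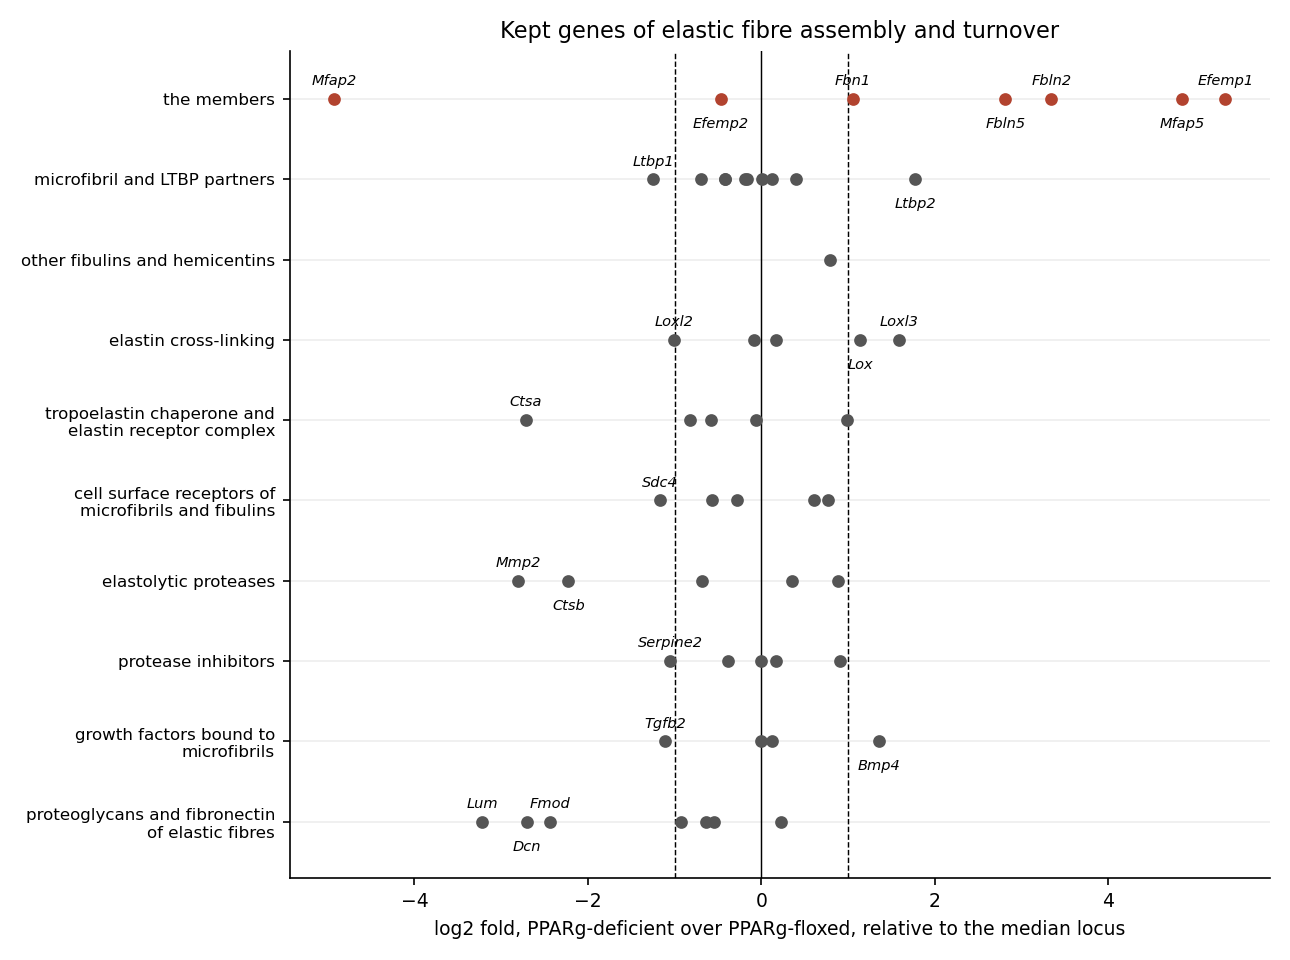
Each point is a kept gene at its log2 fold of PPARg-deficient over PPARg-floxed relative to the median locus, by list, with the members in red at the top and dashed lines at 2-fold. Members and genes past 2-fold are named: the list genes run from Lum, listed at 0 in deficient cells, and Mmp2 (-2.80) to Ltbp2 (1.77). The members run from Mfap2 (-4.92) to Efemp1 (5.35), but they were chosen with their values known, so their wider span supports nothing.

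Markers of other cell types were described in the same way. Of 5 adipocyte markers the 2 kept were lower, with a summed level of 12.9 FPKM in deficient cells and 27.6 FPKM in floxed cells, and Adipoq was at 0.10 FPKM in deficient cells and 9.87 FPKM in floxed cells. Fabp4 was at 12.7 FPKM in deficient cells and 17.6 FPKM in floxed cells (-1.30, and -0.44 as deposited). Of 6 named osteoblast and chondrocyte markers the 3 kept were lower, with a summed level of 2.90 FPKM in deficient cells and 19.4 FPKM in floxed cells, and Alpl was at 0.14 FPKM in deficient cells and 7.49 FPKM in floxed cells. Sox9 was at 2.76 FPKM in deficient cells and 4.25 FPKM in floxed cells (-1.34), and within 2-fold as deposited (-0.48). Adipoq, Alpl and Ibsp passed the filter on their level in floxed cells alone and so had to be lower, though not by 2-fold. Of 9 smooth muscle and pericyte markers the 4 kept lay within 2-fold of the median locus, with Acta2 at 4656 FPKM in deficient cells and 2154 FPKM in floxed cells (0.25, and 1.11 as deposited). The defining marker Myh11 was at 0.05 FPKM in deficient cells and listed at 0 in floxed cells. Of 8 named leukocyte markers only Cd68 was kept, at 2.10 FPKM in deficient cells and 1.56 FPKM in floxed cells, and of 5 endothelial markers 0 were kept. Of the stromal markers Cxcl12 was higher, at 318 FPKM in deficient cells and 60.4 FPKM in floxed cells, and Pdgfra was at 6.82 FPKM in deficient cells and 1.37 FPKM in floxed cells (0.86, and 1.72 as deposited). Nt5e was lower, at 1.01 FPKM in deficient cells and 1.86 FPKM in floxed cells (-1.37, and -0.51 as deposited). The part of such markers in the levels of the 10 genes was not tested, and in bulk RNA fewer cells of a type cannot be told apart from less RNA per cell.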

How the data were processed

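RNA was measured in 2 libraries, 1 per genotype, grouped by the genotype label. The deposited files hold FPKM per transcript with lower and upper bounds and read coverage, written by Cufflinks per the file headers, and the authors' read counts are unknown. Per the submitters' processing notes, the tools were TopHat2 2.0.5, Cufflinks 2.0.2 and Cuffdiff 2.0.2 and the build mm9, listed with no role or order. For the annotation, filters and strand handling the entry is: not given in the sources used here.

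The 45543 transcripts carry assembly IDs only. Loci were named by matching ordered intron and internal exon lengths on the same chromosome and strand to GENCODE M21 (GRCm38). A whole chain of at least 2 introns named 17681 loci, all 10 members among them, a run of 3 lengths 354, and 1 intron plus a terminal exon 947. Against wrong chromosomes 0 of 35377 chains matched. Coordinates of genes are mm9, and those of RefSeq promoters and GENCODE exons are GRCm38. Read bases are coverage times transcript length.

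The members and lists were chosen with earlier results of these data known. Named genes were the members, Pparg, up to 4 kept genes per pathway list (5 FPKM or more in 1 library, ranked by absolute fold), and up to 4 markers per marker list with the highest level plus the first marker. Other genes given by name at under 5 FPKM were chosen after their values were seen. Of alternatives, scaling by a running median over 501 loci of like level was added after seeing the data. A further list gene is not reported here and was left out of the list counts. The centring and the 2-fold call were tested on simulated deficient values, with changes put only into loci above 5 FPKM in floxed cells. That test did not cover changes in genes at lower floxed levels. Python 3.11.15, numpy 2.4.6 and matplotlib 3.10.9 were used.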

Additional observations from a re-analysis of the deposited data

How the results depend on the processing

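Under all 15 alternatives Efemp1, Mfap5, Fbln2 and Fbln5 stayed at least 2-fold higher and Mfap2 lower, and Efemp2 stayed within 2-fold. Fbn1 was higher under 10 of the 15 and fell short under 5: the 4 named beside its values and a 4-fold threshold. All 15 reuse the same 2 libraries, so these tallies are no replicate check. For genes called higher, some outcomes were fixed or favoured in advance. A 1.5-fold threshold could not undo such a call, and values as deposited and TPM keep the upward shift of most loci. No called member changed sign. Over these alternatives, the uncentred values as deposited and TPM included, log2 folds ranged from 3.70 to 7.12 for Efemp1, 3.53 to 5.94 for Mfap5, 3.01 to 4.20 for Fbln2, 2.45 to 3.67 for Fbln5 and -6.97 to -2.68 for Mfap2. The count of lower members was 2 without a filter, where Fbln1 joined at -1.04, and the median over members was then 1.43. That median was 3.67 as deposited and 3.65 with TPM. Among all loci, 4478 were higher and 487 lower as deposited, and 4426 and 584 with TPM. There were 1695 higher with a pseudocount of 0.1 FPKM and 423 lower with 5 FPKM. There were 2187 higher without a filter and 724 with a filter of 5 FPKM. At 1.5-fold 2331 were higher and 2172 lower, and at 4-fold 159 and 413. No paired analysis was possible because there is 1 library per genotype, and for the same reason no replicate could be left out. Without read counts, depth sets no interval for a gene, and levels under 1 FPKM rest on little coverage.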

Other observations

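Of the 12 nearest named, kept loci on either side of the 6 members past 2-fold, 11 lay within 2-fold of the median locus, 0 were higher and 1 was lower. Their gaps to the members ran from 18.2 kb (Trip11 beside Fbln5) to 2259.3 kb (Vrk2 beside Efemp1), so not all were close. Of all kept loci, 10.3% were higher and 11.6% lower, so these counts show nothing particular to the neighbours. The lower one was Apobec1, 48.5 kb from Mfap5, at 1.93 FPKM in deficient cells and 7.88 FPKM in floxed cells (relative log2 fold -2.46). Beside Mfap2, Sdhb was at 206 FPKM in deficient cells and 166 FPKM in floxed cells (-0.55), 31.2 kb away. Beside Efemp1, Pnpt1 was at 7.48 FPKM in deficient cells and 2.70 FPKM in floxed cells (0.34), 204.0 kb away. Beside Fbln5, Trip11 was at 1.39 FPKM in deficient cells and 0.389 FPKM in floxed cells (-0.07), 18.2 kb away. These neighbours were named after their values were seen.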
